A study of Meloidogyne incognita with 75 samples.

Results

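Single animals of Meloidogyne incognita, a root-knot nematode that parasitises plant roots, were compared between the juvenile stage J3 and the next juvenile stage, J4. The 16 libraries labelled J4 (8 animals) and J4_female (8 animals) were pooled as 1 group, and the 14 libraries labelled J3 were the reference. These 30 libraries were chosen by their titles out of 75 libraries of 8 stages, and the animals labelled J4_moulting were left out of the pooled group. Each library was made from 1 animal that was sorted by its shape under a microscope, punctured and lysed alone, and amplified by Smart-seq2, a low-input method that copies full-length messenger RNA. No treatment or genetic change is named for any group, and the labels give neither an age, a host plant nor a source population. The other stages used below to place transcripts are the juveniles pre_J2 (5 animals, hatched from eggs in vitro) and par_J2 (12 animals), J4_moulting (14 animals), adult females (7 animals) and adult males (7 animals). The labels do not say what sets J4_female apart from J4, and the identifiers carry no gene names, so the stages were not checked against marker genes.

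As background, juveniles of root-knot nematodes that have entered a root and set up a feeding site pass through J3 and J4 without feeding, and moult into adults inside the root. The gonad grows through these stages, and a swollen female and a slender, mobile male are the adult forms. Adult females of this species reproduce without males and lay large numbers of eggs.

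The 14 J3 libraries held 7368670 to 22172586 counts, the 8 J4 libraries 3265447 to 15503915 and the 8 J4_female libraries 5086869 to 24701667. J3 animals had 32404 ± 3074 transcripts with a count (SD, n = 14), J4 animals 33534 ± 3895 (SD, n = 8) and J4_female animals 29458 ± 6190 (SD, n = 8). Pooled J4 and J3 did not differ detectably in total count (two-sided permutation p = 0.744) or in detected transcripts (permutation p = 0.588), and adjusted over the 6 depth tests both were 0.744. J4_female against J4 gave an exact permutation p of 0.135 for each measure, adjusted 0.271. Pooled J4 animals varied more than J3 animals. The median Spearman rho between a pair of libraries was 0.799 within J3, 0.713 within J4, 0.637 within J4_female and 0.659 within the pooled group, across transcripts tested. The median standard deviation of log2(CPM + 1), CPM being a transcript's counts scaled to a fixed library total, was 0.71 in J3 and 1.16 in pooled J4. J4 replicate 5 had the smallest total, and J4 replicate 5 and J4_female replicate 8 were least like J3 (median rho 0.571 and 0.533). J4_female replicates 4 and 7 had the fewest detected transcripts of the 30 libraries (21883 and 22394), although J4_female replicate 4 had the highest total (24701667). The columns of J4 replicates 7 and 8 stand between J3 columns in the deposited tables. The part that depth or these libraries play in the results was not tested beyond the values without them given below.

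No transcript passed the threshold in pooled J4 against J3. Of 28886 transcripts tested with edgeR's quasi-likelihood test, 0 (0%) were higher and 0 (0%) were lower at a Benjamini-Hochberg adjusted p under 0.05 with at least a 2-fold difference, and the smallest adjusted p was 0.0705. The unadjusted p lay under 0.05 for 4096 transcripts (14.2%), of which 2866 had higher and 1230 lower levels in pooled J4. With a difference of at least 2-fold as well, 2202 transcripts had higher levels (7.62%) and 606 lower levels (2.1%). For none of the 28886 transcripts did all 16 pooled J4 animals lie above (0%) or below (0%) all 14 J3 animals. Other fits of the same comparison made calls. DESeq2, with its own size factors and filter, called 782 transcripts higher (2.56%) and 126 lower (0.413%), and limma-voom with sample weights called 70 higher (0.242%) and 104 lower (0.36%). In edgeR, fitting all 75 libraries together gave 143 higher (0.359%) and 51 lower (0.128%), and a fit with J4 and J4_female as separate groups 5 higher (0.015%) and 10 lower (0.0301%). The division into higher and lower moved with the scaling in the same edgeR fit. TMM normalization put 70.0% of the transcripts at an unadjusted p under 0.05 on the higher side, DESeq2 size factors 82.5% and library totals alone 88.4%. Against TMM these shifted the median log2 fold change of all transcripts, which was 0.20, by 0.12 and 0.19. In limma-voom with sample weights, where model, weights and test differ together, 46.6% were on the higher side and the shift was -0.21.

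**Figure D1:**
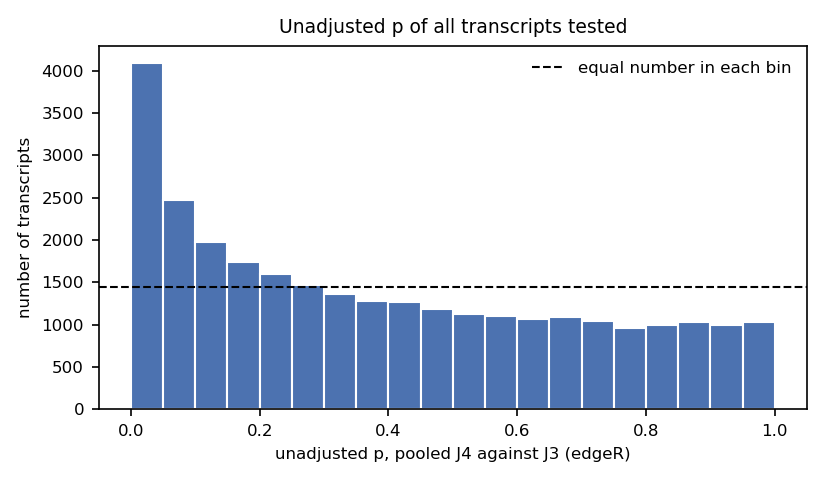
Unadjusted p (x axis, 20 bins) of the 28886 transcripts tested for pooled J4 (16 animals) against J3 (14 animals), with the number of transcripts on the y axis; the dashed line marks an equal number in each bin. The first bin holds 4096 transcripts and the last 1026, although 0 transcripts passed the adjusted threshold.

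With 0 calls, the transcripts nearest the threshold are described instead, and they were chosen after their values were seen. At an adjusted p under 0.10, with no limit on the fold, 43 transcripts had higher levels in pooled J4 (0.149%) and 27 had lower levels (0.0935%), from 69 genes by identifier. The length of the list rested on single libraries: 0 transcripts reached that adjusted p without J3 replicate 1, 2, 5, 9 or 14 or without J4_female replicate 5 or 8, and 295 did without J4_female replicate 4. The 43 had a median log2 fold change of 2.81 and ran up to 11.53, with 18 of them at 10-fold or more. The 27 had a median of -1.80 and reached -4.62, with 9 at 10-fold or more. The animals differed in how many of these transcripts they carried. A transcript of the 43 lay above every J3 animal in 4 to 12 of the 16 pooled J4 animals, with a median of 9. By library, J4 replicate 1 and J4_female replicate 2 each exceeded every J3 animal for 9 of the 43, J4 replicate 4 for 35, J4_female replicate 5 for 34 and J4_female replicate 8 for 40. A transcript of the 27 lay below every J3 animal in 0 to 13 pooled J4 animals, with a median of 6. These lists come from the contrast itself, so their folds and counts describe the choice and support nothing.

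**Figure D2:**
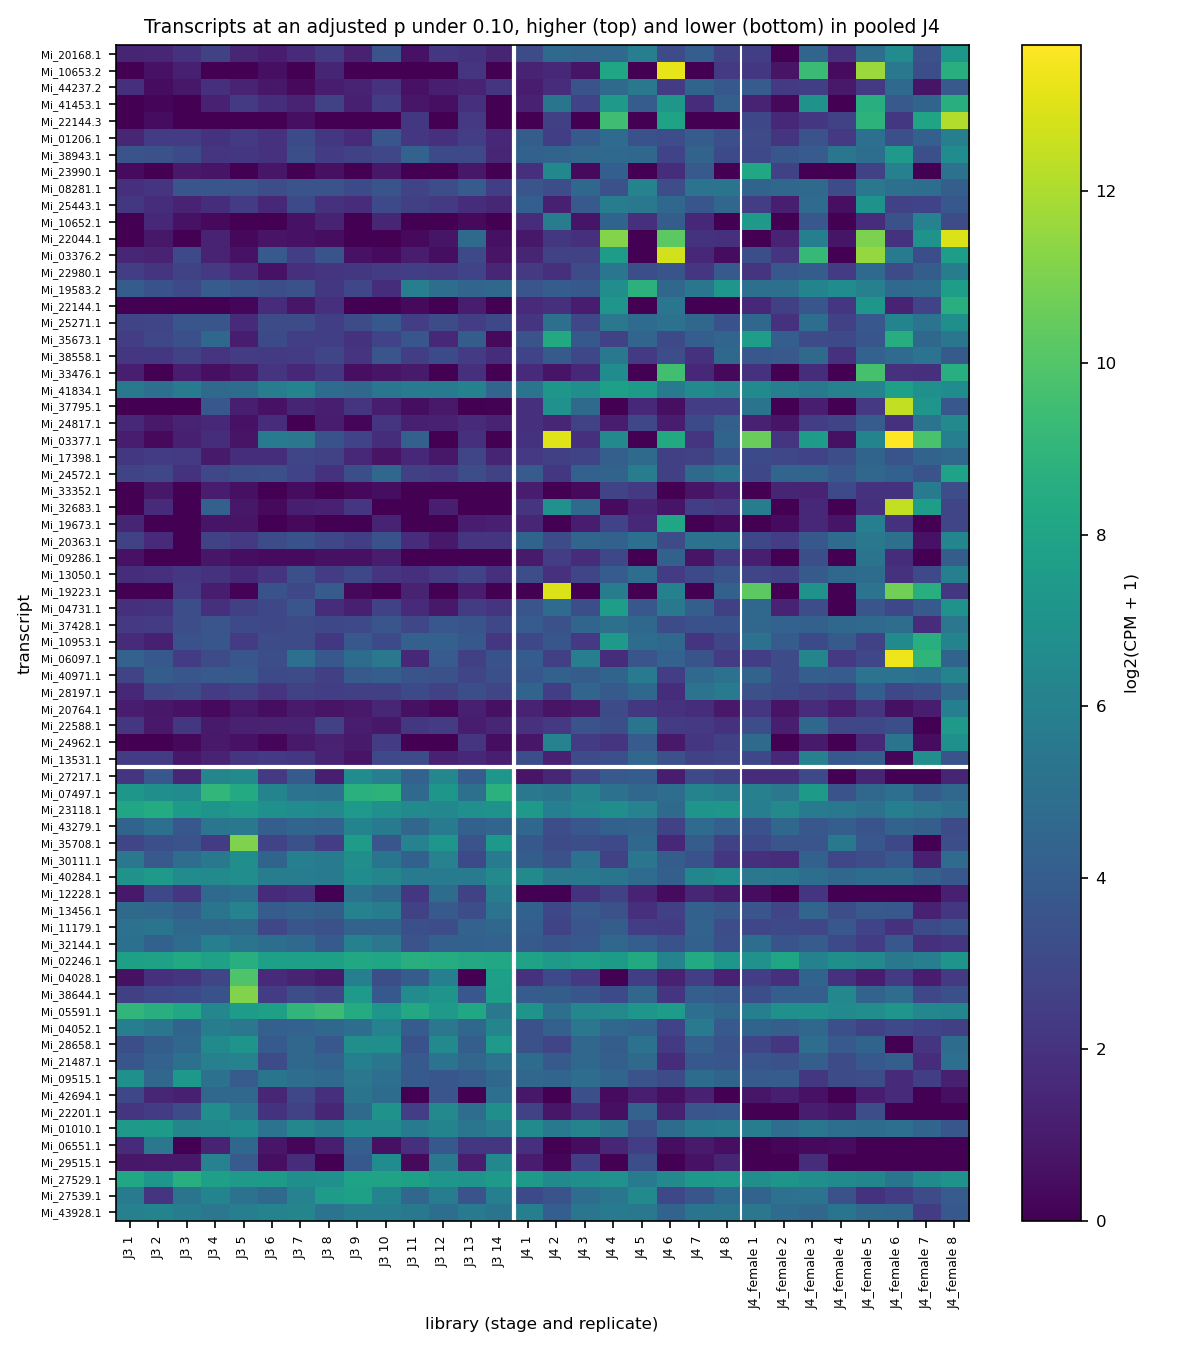
Levels as log2(CPM + 1) (colour) of the 70 transcripts at an adjusted p under 0.10 (rows, the 43 higher above the white line and the 27 lower under it) in the 30 libraries (columns). White vertical lines part J3, J4 and J4_female. High values in the upper block fall in some pooled J4 animals and not in others, with 9 (J4 replicate 1) to 40 (J4_female replicate 8) of the 43 above every J3 animal.

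Most of these differences also held when J4 and J4_female were each set against J3, as the comparison asks. A difference was taken to hold when the stage alone had the same sign, at least a 2-fold difference and an unadjusted p under 0.05. Of the 43 higher transcripts, 35 held in J4 alone (39 were tested there), 41 in J4_female alone (42 tested) and 34 in both. Of the 27 lower transcripts, 23 held in J4 alone, 27 in J4_female alone and 23 in both. The median log2 fold change of the 43 was 1.77 in J4 and 3.38 in J4_female, and that of the 27 was -1.72 and -2.11. Of the wider set at an unadjusted p under 0.05 with 2-fold, 481 of 2202 higher and 225 of 606 lower transcripts held in both stages. In that set 1116 of the higher transcripts held in J4 and 1470 in J4_female, and 329 and 472 of the lower. Of all transcripts tested, 14.8% in J4 alone and 16.7% in J4_female alone had an unadjusted p under 0.05, with either sign and any fold. The share of all transcripts that meet the whole rule was not counted. Both stage fits use the 14 J3 animals of the pooled fit, and the pooled fit draws on both stages, so these counts describe how evenly the stages share a difference and are not independent evidence.

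**Figure D3:**
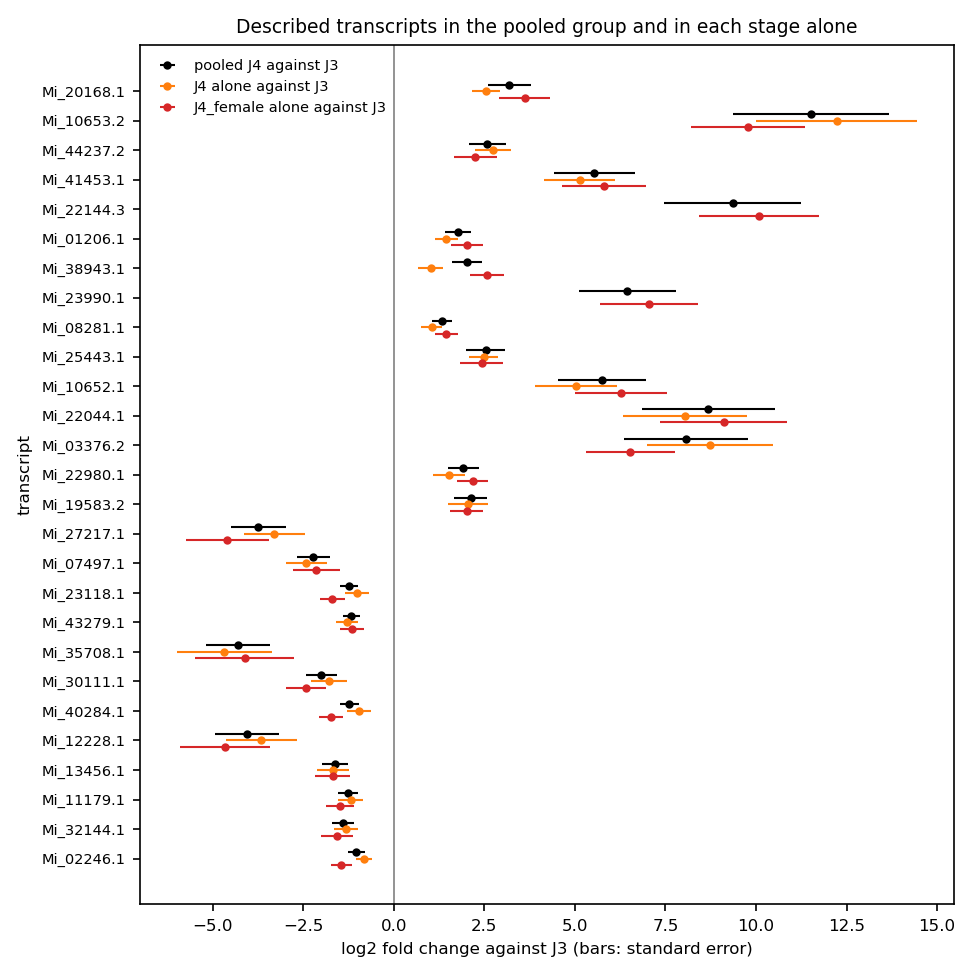
log2 fold change against J3 (x axis, bars are standard errors) of the 27 transcripts described with values (rows), in pooled J4 (black), J4 alone (orange) and J4_female alone (red). All 3 estimates lie on the same side of 0 for the 25 transcripts tested in both stages, and Mi_22144.3 and Mi_23990.1 were not tested in J4 alone.

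The highest folds among the 43 belonged to transcripts with high means in adult females. Of the 43, 16 had their highest mean level outside J3 and pooled J4 in females (37.2%, against 6.60% of all transcripts tested). Among the wider set of 2202 higher transcripts that share was 9.99%. Not all of the 16 were abundant in most females. For Mi_37795.1 and Mi_32683.1 the mean rested on female replicate 6 (3225 and 3852 CPM), with female medians of 1.11 and 1.32 CPM. The 16 had a median log2 fold change of 7.02 in pooled J4. Their median levels were 0.596 CPM in J3, 3.37 CPM in J4, 9.30 CPM in J4_female and 689 CPM in females. Each lay above every J3 animal in 4 to 11 of the 16 pooled J4 animals.

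Mi_10653.2 had 0 CPM at the median and 3.37 CPM at most in J3. In J4 its lowest, median and highest levels were 0, 1.70 and 9427 CPM, in J4_female 0.324, 26.4 and 3222 CPM, and in adult females 898, 5209 and 13676 CPM. In 9 of the 16 pooled J4 animals it exceeded every J3 animal, 2 of them reached the adult female range, and the other 7 overlapped J3. The high animals were J4 replicates 4 (275 CPM) and 6 and J4_female replicates 3 (648 CPM), 5 and 8 (384 CPM), with J4_female replicate 6 at 44.0 CPM. The pooled log2 fold change was 11.53 ± 2.15 (SE; edgeR adjusted p = 0.0705), and 9.10 without J4 replicate 6. It was 12.23 in J4 alone and 9.78 in J4_female alone.

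Mi_22044.1 had 0, 0.457 and 26.0 CPM as its lowest, median and highest levels in J3, 0, 2.90 and 2328 CPM in J4, and 0, 30.9 and 8190 CPM in J4_female. J4 replicates 4 and 6 and J4_female replicates 3, 5, 7 and 8 lay above every J3 animal, and the other 10 overlapped J3. Of the 16 animals, 5 were at or above the lowest adult female (101 CPM), and J4_female replicate 8 was above the highest (3315 CPM). Set against J3, its log2 fold change was 8.68 ± 1.84 (SE; edgeR adjusted p = 0.0705), between 7.68 without J4_female replicate 8 and 10.79 without J3 replicate 13.

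Mi_22144.3 was high in many of the same animals. Its levels in J3 were 0 CPM at the median and 3.75 CPM at most, and J4 replicates 4 (716 CPM) and 6 (239 CPM) and J4_female replicates 5 (455 CPM), 7 (258 CPM) and 8 (4430 CPM) were at or above the lowest adult female (162 CPM), the last above the highest (1200.2 CPM). In all, 8 of the 16 animals lay above every J3 animal and the other 8 overlapped J3. In the pooled fit, the log2 fold change was 9.36 ± 1.89 (SE; edgeR adjusted p = 0.0705). A further transcript of the gene, Mi_22144.1, stood in the list at 6.18, and how the authors' counting divides reads between transcripts of 1 gene is not given in the sources used here.

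Mi_41453.1 was higher across more animals. It ran from 0 to 5.43 CPM in J3 with a median of 1.33 CPM, against medians of 15.8 CPM in J4 and 16.7 CPM in J4_female and highest levels of 161 and 391 CPM. In 11 of the 16 pooled J4 animals it exceeded every J3 animal, while 2 reached the adult female range (271 to 2344 CPM). Its log2 fold change in the pooled fit was 5.54 ± 1.11 (SE; edgeR adjusted p = 0.0705).

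Mi_03376.2 had a J3 median of 1.56 CPM and a J3 maximum of 13.2 CPM, and reached 6887 CPM in J4 replicate 6 and 2969 CPM in J4_female replicate 5. Only 6 of the 16 animals exceeded every J3 animal, and 2 animals lay below every J3 animal. The log2 fold change of 8.06 ± 1.71 (SE; edgeR adjusted p = 0.0705) became 5.85 without J4 replicate 6.

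Mi_01206.1 showed a smaller and more even difference. Its lowest, median and highest levels were 1.79, 3.55 and 11.7 CPM in J3, 4.84, 11.9 and 27 CPM in J4, and 3.38, 9.91 and 56.8 CPM in J4_female. Levels overlapped for 9 of the 16 animals. The pooled log2 fold change was 1.78 ± 0.37 (SE; edgeR adjusted p = 0.0705), and females had a median of 65.0 CPM.

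Other female-abundant transcripts had their highest levels in other animals, although the sets of animals above J3 overlapped. Mi_03377.1, the neighbour by number of Mi_03376, reached 8329 CPM in J4 replicate 2, 13325 CPM in J4_female replicate 6, 1532 CPM in J4_female replicate 1 and 886 CPM in J4_female replicate 7. J3 animals had 2.52 CPM at the median and 47.7 CPM at most, and adult females 4283 to 35540 CPM. The animals high for Mi_10653.2 also exceeded every J3 animal for Mi_03377.1, J4 replicates 4 and 6 at 86.1 and 320 CPM and J4_female replicates 3, 5 and 8 at 186, 71.4 and 58.3 CPM. Mi_19223.1 was highest in those animals too, with 8051 CPM in J4 replicate 2 and 1735 CPM in J4_female replicate 6, against 14.2 CPM at most in J3. J4 replicates 4 and 6 and J4_female replicates 3 and 5 had 54.1, 63.9, 133 and 35.6 CPM of it, also above every J3 animal. Mi_10652.1, next by number to Mi_10653, reached 54 CPM in J4 replicate 2, 162 CPM in J4_female replicate 1 and 67.2 CPM in J4_female replicate 7, against 1.88 CPM at most in J3. J4_female replicate 6 and J4 replicate 2 thus had 44.0 and 1.87 CPM of Mi_10653.2 beside the highest levels of Mi_03377.1, while J4 replicate 6 had 9427 CPM of Mi_10653.2 and 320 CPM of Mi_03377.1. Neighbouring numbers are taken from the identifiers and were not checked on a genome. The log2 fold changes were 7.11 for Mi_03377.1, 7.98 for Mi_19223.1 and 5.74 for Mi_10652.1, with edgeR adjusted p of 0.0829, 0.0981 and 0.0705. They were 6.39 for Mi_03377.1 without J4_female replicate 6, 6.17 for Mi_19223.1 without J4 replicate 2 and 5.17 for Mi_10652.1 without J4_female replicate 1.

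For some of the list 1 animal made most of the difference. Mi_37795.1 and Mi_32683.1 reached 5610 and 5600 CPM in J4_female replicate 6 and at most 142 and 205 CPM in the other pooled J4 animals. Without that animal their log2 fold changes went from 7.62 to 4.17 and from 7.37 to 4.19. In adult females their medians were 1.11 and 1.32 CPM, and 1 female lay above the J3 range for each. Mi_06097.1 reached 10355 CPM in the same J4_female animal and 19878 CPM in J4_moulting replicate 14, and its log2 fold change of 5.31 became 2.08 without J4_female replicate 6. That transcript had -0.07 in J4 alone and 6.32 in J4_female alone, so it did not hold in J4.

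**Figure D4:**
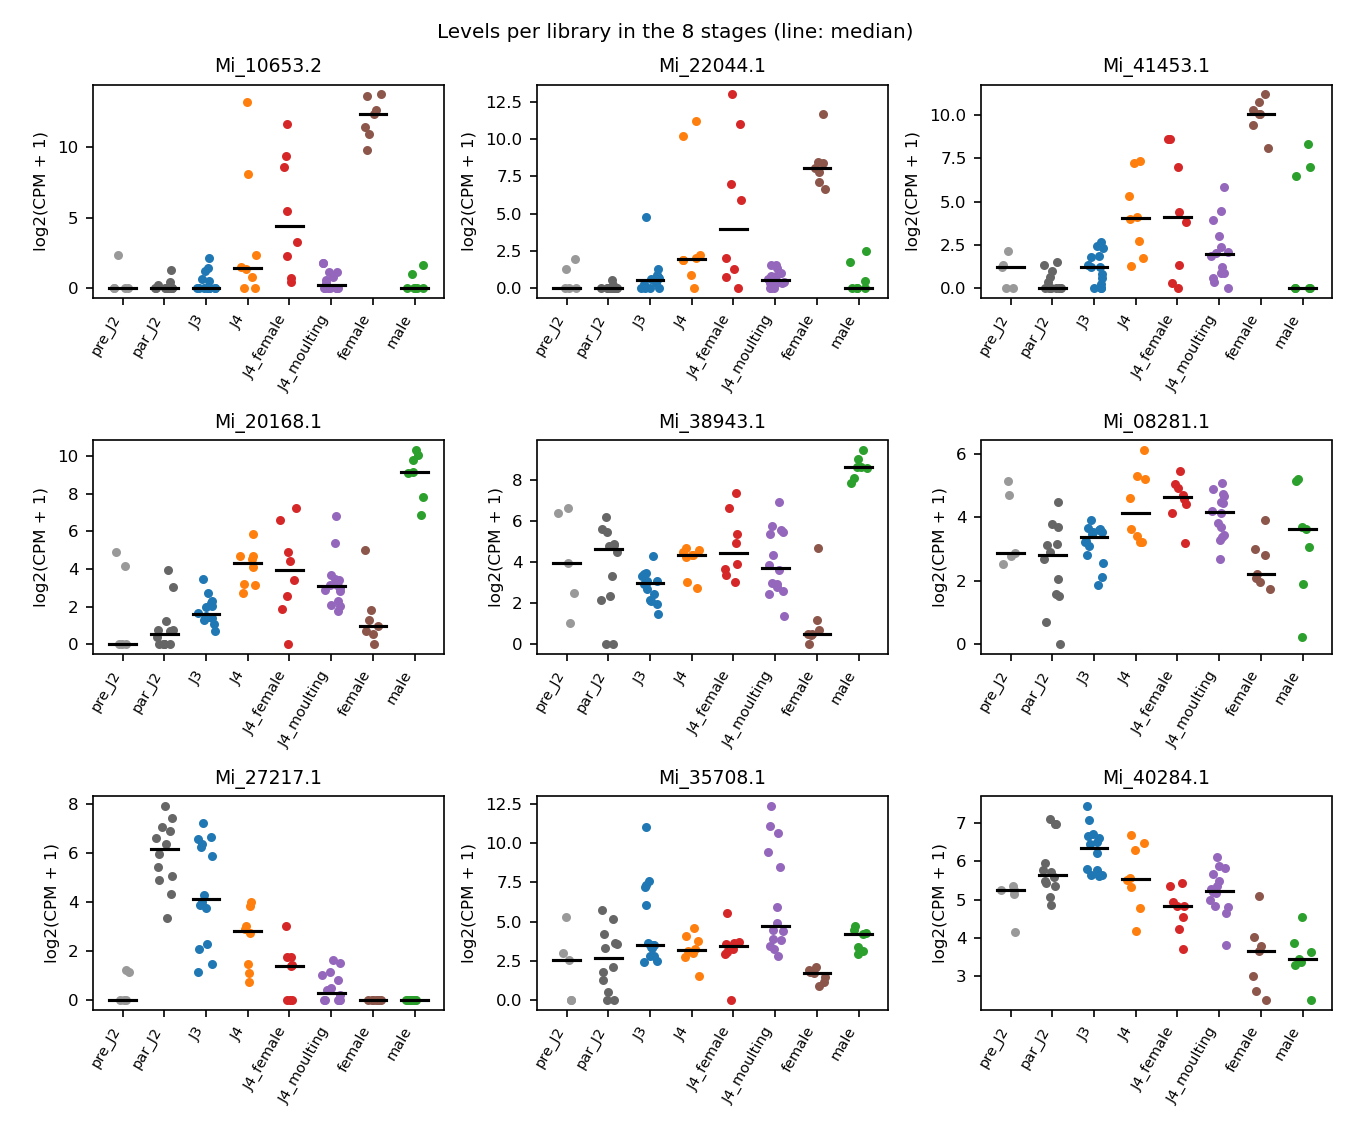
Levels per library as log2(CPM + 1) (y axis) of 9 transcripts in the 8 stages (x axis), each point 1 animal and each line the stage median. Mi_10653.2, Mi_22044.1 and Mi_41453.1 are high in females, Mi_20168.1 and Mi_38943.1 in males, and Mi_27217.1 has a median of 71.6 CPM in par_J2 and 0 CPM in both adult sexes.

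The share of a library's counts taken by the 43 transcripts also differed between animals. It is a sum, so the transcripts with the most counts weigh most in it. The share was 0.0133% to 0.0306% in J3, 0.0314% to 1.97% in J4 with a median of 0.101%, and 0.0298% to 3.82% in J4_female with a median of 0.376%. In J4_moulting, outside the comparison, it was 0.0326% to 3.24% with a median of 0.0678%. In adult females it was 2.75% to 10.3% and in males 0.274% to 0.637%. The highest pooled J4 animals, J4_female replicate 6 (3.82%), J4 replicate 6 (1.97%), J4 replicate 2 (1.76%), J4_female replicate 8 (1.66%) and J4_female replicate 5 (1.10%), came from both labels. In J4_female replicate 6, Mi_03377.1, Mi_06097.1, Mi_37795.1 and Mi_32683.1 had 13325, 10355, 5610 and 5600 CPM. J4_female replicate 2 (0.0298%) lay inside the J3 range and J4 replicate 1 (0.0314%) just above it. Each animal was sequenced whole, so more cells of a type and more RNA per cell cannot be told apart.

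**Figure D5:**
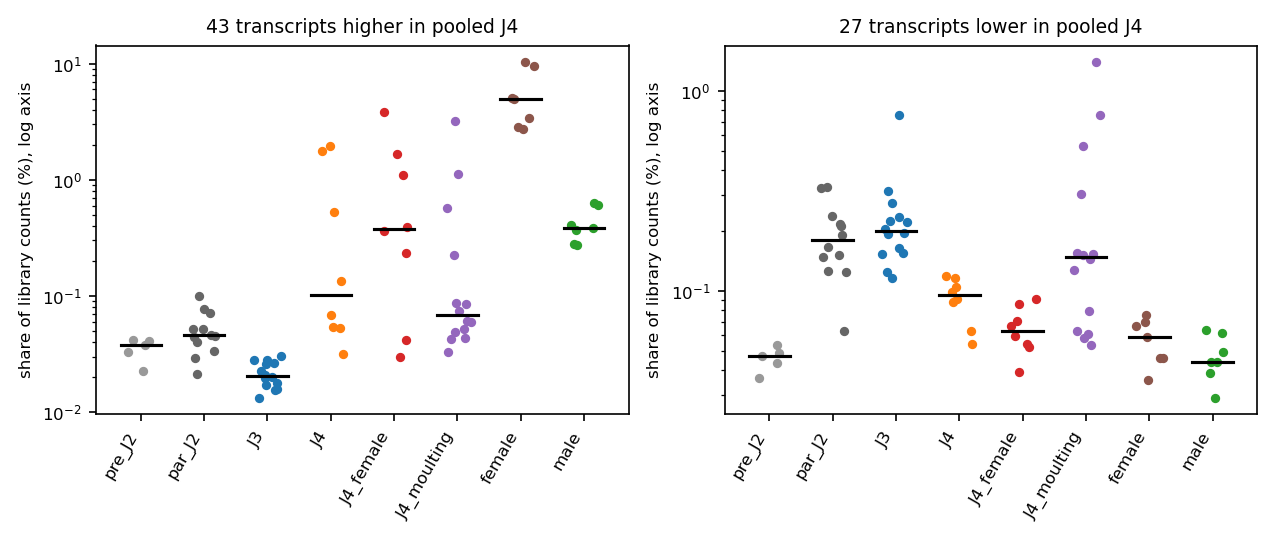
Share of a library's counts (y axis, percent, log axis) taken by the 43 transcripts with higher (left) and the 27 with lower levels in pooled J4 (right), each point 1 animal and each line the stage median. The 43 span 0.0298% to 3.82% in the 16 pooled J4 animals against 0.0133% to 0.0306% in J3, and the 27 span 0.0391% to 0.118% against 0.116% to 0.756%.

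The other large group of the 43 was set by means in males. For 20 of them the highest mean outside J3 and pooled J4 was in males (46.5%, against 21.7% of all transcripts tested and 37.3% of the 2202). Not all of the 20 were abundant in males. Mi_33352.1 and Mi_24817.1 had male medians of 0.409 and 2.13 CPM, and Mi_25271.1 had 12.2 CPM, against 84.9 CPM in females. The folds of the 20 were lower, and each lay above every J3 animal in 4 to 12 of the 16 pooled J4 animals. The median log2 fold change was 2.03, and median levels were 4.31 CPM in J3, 11.8 CPM in J4, 15.7 CPM in J4_female and 54.9 CPM in males.

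Mi_20168.1 had the smallest p of all transcripts. Its lowest, median and highest levels were 0.616, 2.00 and 10.2 CPM in J3, 5.61, 19.2 and 56.7 CPM in J4, and 0, 15.3 and 150 CPM in J4_female. In 9 of 16 pooled J4 animals it exceeded every J3 animal, and J4_female replicate 2 had none. Set against J3, its log2 fold change was 3.19 ± 0.60 (SE; edgeR adjusted p = 0.0705). It rose in J4 alone (2.54 ± 0.40, SE; adjusted p = 0.0287) and in J4_female alone (3.62 ± 0.70, SE; adjusted p = 0.0268), and the median was 579 CPM in males and 0.963 CPM in females.

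Mi_38943.1 ran from 1.81 to 18.8 CPM in J3 with a median of 6.91 CPM, from 5.71 to 24.6 CPM in J4 with a median of 19.4 CPM, and from 7.27 to 167 CPM in J4_female with a median of 22.1 CPM. The groups overlapped for 7 of the 16 animals. In the pooled fit, the log2 fold change was 2.03 ± 0.42 (SE; edgeR adjusted p = 0.0705), with 1.03 in J4 alone and 2.57 in J4_female alone, and the male median was 404 CPM against 0.431 CPM in females.

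Mi_22980.1 was above every J3 animal in 11 of the 16 animals, with medians of 3.78 CPM in J3, 8.46 CPM in J4 and 13.8 CPM in J4_female. Its log2 fold change was 1.93 ± 0.41 (SE; edgeR adjusted p = 0.0710). Mi_23990.1 was nearly absent in J3, at 0.936 CPM or less, and reached 83.5 CPM in J4 replicate 2 and 293 CPM in J4_female replicate 1. Both animals were also among the 3 with the highest levels of Mi_10652.1. The log2 fold change of Mi_23990.1 was 6.44 ± 1.34 (SE; edgeR adjusted p = 0.0705), and 5.36 without J4_female replicate 1.

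Mi_44237.2 was the most widely shared of the higher transcripts, above every J3 animal in 12 of the 16, 6 with each label. Its lowest, median and highest levels were 0.260, 1.35 and 3.19 CPM in J3, 1.05, 11.5 and 44.1 CPM in J4, and 0.696, 4.39 and 24.7 CPM in J4_female. Its log2 fold change in the pooled fit was 2.58 ± 0.50 (SE; edgeR adjusted p = 0.0705), with 2.74 in J4 and 2.26 in J4_female. The other transcript of the gene, Mi_44237.1, had the opposite sign (-0.96; adjusted p = 0.288), with means of 62.1 CPM in J3 and 36.0 CPM in pooled J4. Mi_19583 had the same arrangement. Its second transcript, Mi_19583.2, had means of 15.6 CPM in J3 and 84.8 CPM in pooled J4, a log2 fold change of 2.13 ± 0.46 (SE; adjusted p = 0.0732 by edgeR), while Mi_19583.1 had 65.2 and 33.0 CPM (-1.19; adjusted p = 0.529). Since the division of counts between transcripts of a gene is uncertain, a difference in one of them need not be a difference in the gene. In Mi_10653, Mi_03376 and Mi_22144 every transcript had a higher mean in pooled J4 than in J3. Mi_10653.1 had means of 0.226 CPM in J3 and 230 CPM in pooled J4, and Mi_03376.1 of 0.650 and 221 CPM, and neither was tested in the pooled fit.

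The remaining higher transcripts with values had other profiles. Mi_25443.1 had its highest outside median in J4_moulting, 21.3 CPM. It ran from 1.52 to 7.29 CPM in J3 with a median of 2.68 CPM, and was above every J3 animal in 7 of 8 J4 animals (median 18.8 CPM) and 3 of 8 J4_female animals (median 5.47 CPM). J4 replicate 2 (1.29 CPM) and J4_female replicates 2 and 4 (1.18 and 0.486 CPM) lay below every J3 animal. It rose in J4 alone, by 2.48 ± 0.41 on the log2 scale (SE; adjusted p = 0.0313 by edgeR), and in J4_female alone (2.43 ± 0.60, SE; adjusted p = 0.0498), with 2.54 ± 0.54 in the pooled fit (adjusted p = 0.0705). Mi_08281.1 had a small difference in most animals, with medians of 9.36 CPM in J3, 17.5 CPM in J4 and 24.0 CPM in J4_female. It exceeded every J3 animal in 4 of 8 J4 and 7 of 8 J4_female animals (log2 fold change 1.33 ± 0.28, SE; edgeR adjusted p = 0.0705).

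Among the 27 lower transcripts, 20 had their highest mean outside J3 and pooled J4 in par_J2 (74.1%, against 26.8% of all transcripts tested and 63.7% of the 606). For 6 it was in J4_moulting (22.2%, against 25.8% of all tested) and for 1 in males (3.70%, against 21.7%). Females were the highest stage for 0 of them (0%, against 6.60%). The 27 together took 0.116% to 0.756% of counts in J3, 0.0539% to 0.118% in J4 and 0.0391% to 0.0911% in J4_female, with a median of 0.179% in par_J2.

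Mi_27217.1 had its highest median in par_J2. Its median was 0 CPM in pre_J2 (1.33 CPM at most), 71.6 CPM in par_J2 and 16.7 CPM in J3. It was 6.08 CPM in J4, 1.65 CPM in J4_female and 0.240 CPM in J4_moulting, whose order the labels do not give. All 14 adults had 0 CPM. J3 animals spread from 1.22 to 147 CPM, so only 5 of the 16 pooled J4 animals lay below every J3 animal. The pooled log2 fold change was -3.73 ± 0.75 (SE; edgeR adjusted p = 0.0705), with -3.29 in J4 alone and -4.59 in J4_female alone. Mi_12228.1 had a like profile, with 0 CPM in all 5 pre_J2 animals and at most 0.289 CPM in adults. Its medians were 21.4 CPM in par_J2, 6.17 CPM in J3, 1.27 CPM in J4 and 0 CPM in J4_female. Its log2 fold change was -4.04 ± 0.88 (SE; edgeR adjusted p = 0.0732), and its J3 range began at 0 CPM, so no animal could lie below it.

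Mi_40284.1 lay below every J3 animal in 13 of the 16 pooled J4 animals, the highest number among the 27. Its lowest, median and highest levels were 48.2, 79.9 and 172 CPM in J3, 17.0, 45.2 and 102 CPM in J4, and 12, 27.4 and 42.5 CPM in J4_female. All 8 J4_female animals and 5 of 8 J4 animals lay below every J3 animal. Set against J3, its log2 fold change was -1.23 ± 0.27 (SE; edgeR adjusted p = 0.0732). It fell in J4_female alone (-1.74 ± 0.33, SE; adjusted p = 0.0268) but in J4 alone stood at -0.96 (adjusted p = 0.183), short of 2-fold, so it did not hold in J4.

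Mi_23118.1 had 83.9, 120 and 341 CPM in J3, 25.8, 98.1 and 163 CPM in J4, and 34.3, 48.2 and 86.2 CPM in J4_female as lowest, median and highest levels. In 4 J4 and 7 J4_female animals it lay below every J3 animal, with a log2 fold change of -1.24 ± 0.26 (SE; adjusted p = 0.0705 by edgeR). Mi_02246.1 had medians of 277 CPM in J3, 195 CPM in J4 and 98.6 CPM in J4_female. It fell in J4_female alone (-1.45 ± 0.29, SE; edgeR adjusted p = 0.0268). In J4 alone it had -0.82 (edgeR unadjusted p = 0.00111, adjusted p = 0.121), short of 2-fold, so it did not hold there.

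Mi_30111.1 had lower medians in J4 and J4_female than in J3, J4_moulting or males, of which only J3 was tested against pooled J4. Its medians were 43 CPM in J3, 12.8 CPM in J4, 7.56 CPM in J4_female, 37.7 CPM in J4_moulting and 107 CPM in males. Its J3 range of 7.5 to 112 CPM overlapped with 10 of the 16 pooled J4 animals (log2 fold change -1.99 ± 0.43, SE; edgeR adjusted p = 0.0705). The other lower transcripts with values, Mi_07497.1, Mi_43279.1, Mi_13456.1, Mi_11179.1 and Mi_32144.1, had log2 fold changes of -2.22, -1.17, -1.62, -1.27 and -1.40, held in both stages, and overlapped J3 in 9 to 12 of the 16 animals.

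Some of the lower list reflected a few high J3 animals. Mi_35708.1 had 4.49, 10.4 and 2091 CPM in J3 and 0 to 45.3 CPM in pooled J4, whose median of 8.76 CPM was close to that of J3. The 5 J3 animals above every pooled J4 animal were replicates 5, 9, 11, 12 and 14, at 2091, 192, 65.7, 145 and 159 CPM. In the pooled fit, the log2 fold change was -4.30 ± 0.89 (SE; edgeR adjusted p = 0.0705), and -2.33 without J3 replicate 5. Mi_38644.1 was high in the same 5 J3 animals, at 2179, 164, 95.6, 133 and 204 CPM. Its pooled J4 median of 15.2 CPM was above its J3 median of 11 CPM, the opposite of its log2 fold change of -3.68, which was -1.70 without J3 replicate 5. Mi_04028.1 exceeded every pooled J4 animal in J3 replicates 5, 9, 12 and 14 and had -4.60, or -2.89 without J3 replicate 5. In J4_moulting, 3 animals had 1632 to 5264 CPM of Mi_35708.1, against a median of 25.4 CPM.

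The stages fitted alone differed in how many transcripts they called. J4 alone gave 2 higher (0.00651%) and 0 lower (0%) of 30708 transcripts tested, Mi_20168.1 and Mi_25443.1, with 4539 at an unadjusted p under 0.05 (14.8%). J4_female alone gave 183 higher (0.611%) and 81 lower (0.27%) of 29954, with 4999 at an unadjusted p under 0.05 (16.7%). Of the 183, 172 were tested in J4 and 49 held there, and of the 81, 20 held in J4. The median log2 fold change in J4 alone was 0.63 for the higher and -0.82 for the lower transcripts. For all transcripts tested in J4 alone it was 0.096. The share of all transcripts that meet the hold rule in J4 alone was not counted. Both fits use the same J3 animals, so these counts and medians are not independent evidence. In the pooled fit 35 of the 183 and 11 of the 81 had an adjusted p under 0.10. The difference between the stages was tested in a fit of all 3 groups. J4_female against J4 gave 0 higher and 0 lower (0%) of 33259 transcripts, with a smallest adjusted p of 0.173 and 3363 at an unadjusted p under 0.05 (10.1%).

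The 4 lower transcripts with the smallest p in J4_female alone, chosen after their values were seen, did not hold in J4 alone. Mi_33305.1 had 46.6, 138 and 403 CPM in J3, 15.5, 127 and 363 CPM in J4, and 13.9, 23.6 and 49.5 CPM in J4_female, as lowest, median and highest. It fell in J4_female (log2 fold change -2.65 ± 0.43, SE; edgeR adjusted p = 0.0261), with 7 of 8 animals below every J3 animal, and had -0.43 in J4 (adjusted p = 0.673). The J4 animals were spread, with replicates 1, 5, 7 and 8 at 333, 281, 183 and 363 CPM and the other 4 at 15.5 to 70.2 CPM. Mi_01598.1 showed medians of 135 CPM in J3, 121 CPM in J4 and 28.8 CPM in J4_female, with 3 of 8 J4 animals below every J3 animal and a log2 fold change of -0.80 in J4. Mi_23339.1 was at 0 CPM at the median in J4_female against 5.38 CPM in J3 and 1.69 CPM in J4, where 2 of 8 animals lay below every J3 animal and the log2 fold change was -1.31. In these 3 transcripts the J4_female and J4 difference had adjusted p of 0.173 to 0.226 over all transcripts.

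Mi_15842.2 was listed at 0 in all 8 J4_female animals. A count of 0 there allows up to 0.121 CPM in the deepest and 0.590 CPM in the shallowest of those libraries, from 3 counts. Its median was 75.8 CPM in J3 and 77.7 CPM in J4, but 3 of the 8 J4 and 3 of the 14 J3 animals were also at 0, so presence and absence varied within stages. The adjusted p was 0.0268 in J4_female alone (edgeR), 0.510 in the pooled fit and 0.173 for J4_female against J4. The gene has more than 1 transcript by its identifier, and how the counts were divided between them was not tested. In all, 12 of the 81 lower transcripts were at 0 in every J4_female animal. The 81 were picked for low levels in J4_female, and the share of all transcripts at 0 in every J4_female animal was not counted. Mi_38558.1 was among the 4 higher transcripts with the smallest p in J4_female alone. Its medians were 4.26 CPM in J3, 7.53 CPM in J4 and 16.2 CPM in J4_female. It rose in J4_female by a log2 fold change of 2.00 ± 0.38 (SE, edgeR adjusted p = 0.0268). It also held in J4 alone, at 1.35 (edgeR unadjusted p = 0.00298, adjusted p = 0.145). In the pooled fit it had 1.71 (edgeR adjusted p = 0.0775), inside the list at an adjusted p under 0.10. The others, Mi_10653.2, Mi_22144.3 and Mi_38943.1, also belong to that list. Mi_10653.2 and Mi_38943.1 held in J4 alone, and Mi_22144.3 was not tested there.

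Libraries outside the 30 were used to see what the listed transcripts do between an earlier and a later stage. In females against par_J2, 8.25% of 25813 transcripts were called higher and 8.7% lower. Of the 43 higher transcripts, 41 were tested there, 19 rose (46.3%) and 1 fell. Of the 27 lower transcripts, 10 fell (37.0%) and 0 rose. In J4_moulting against par_J2, where 9.93% were called higher and 7.93% lower, 8 of 32 tested from the 43 rose and 1 fell, and of the 27, 9 fell and 4 rose. In males against females, where 16.4% were called higher and 13.3% lower, 15 of the 43 were called higher in males and 15 lower. Examples from females against par_J2 were Mi_10653.2 (log2 fold change 16.36; edgeR adjusted p = 3.03e-08), Mi_41453.1 (12.52; 1.15e-07) and Mi_27217.1 (-13.17; 1.59e-07). All females had 0 CPM of Mi_27217.1, so the size of its fitted fold depends on the prior count. Male against female gave 6.5 for Mi_20168.1 (adjusted p = 0.00262) and -14.74 for Mi_10653.2 (adjusted p = 0.000368).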

How the data were processed

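Whole-number counts per transcript of 75 single-animal Smart-seq2 libraries were deposited by the authors, not normalized. HISAT2 2.2.1 and StringTie 2.2.1 were used per the submitters' processing notes. The genome build, annotation, strand setting and counting of near-identical gene copies are named in no source used here, so counts of transcripts with a close copy, frequent in this polyploid genome, are uncertain. The full table holds 45378 transcripts, and every column matched a library title (0 unmapped).

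Titles gave the groups. Each library is 1 animal by its labels. Nothing names separate cultures or batches, so stage and any batch that follows it cannot be told apart. The p-values set a difference against the spread between these animals. In the pooled fit that spread includes any difference between J4 and J4_female. Counts were fitted with edgeR 4.0.16 (R 4.3.3; TMM, filterByExpr, robust quasi-likelihood test), and calls needed a Benjamini-Hochberg adjusted p under 0.05 over all tested and at least a 2-fold difference either way. Standard errors are the log2 fold change divided by the square root of the F statistic. Alternatives used DESeq2 1.42.0 and limma 3.58.1. Levels are CPM over the library total and carry no transcript length, so they are not compared between transcripts. Smart-seq2 has no molecular identifiers, so floors cover counting error only. The scripts were checked on simulated counts. No duplicate libraries were found (lowest chi-square per degree of freedom between libraries of a stage 45.9).

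The comparison, the lists and the tests were chosen with earlier results of these data known. The rule for named transcripts took those called with the smallest p, the largest folds and the highest levels; with 0 called it named none. The 15 higher and 12 lower transcripts with the smallest p, 1 per gene, and the 4 per direction in J4_female alone were therefore chosen after their values were seen. Male against female and both wider lists were added then too.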

Additional observations from a re-analysis of the deposited data

Results flagged for a closer look

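Among the 54 sets of 8 J4 or 8 J4_female animals checked, 2 had an animal set apart from the others by more than the 95% limit of Dixon's test, which chance passes in about 1 of 20 sets. Mi_25443.1 was lowest in J4 replicate 2, at 1.29 CPM, the only J4 animal below every J3 animal for this transcript. Mi_35708.1 was at 0 CPM in J4_female replicate 7, the lowest of the 8. The check was not made on the CPM scale, on which single high animals stand further apart. Mi_10653.2, at 9427 CPM in J4 replicate 6 and 275 CPM in J4 replicate 4, was not among the 2.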

How the results depend on the processing

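The 0 higher and 0 lower calls did not hold in every fit. DESeq2 called 782 higher and 126 lower, limma-voom using sample weights 70 and 104, a fit of all 75 libraries 143 and 51, and a fit with 3 groups 5 and 10; the cause was not tested. Leaving out each of the 30 libraries in turn gave 0 to 10 higher and 0 to 2 lower calls, with 10 and 2 without J4_female replicate 4, 1 and 0 (Mi_20168.1) without J4_female replicate 2 and 0 and 1 (Mi_07497.1) without J4_female replicate 3. The other alternatives gave 0 and 0: DESeq2 size factors, library totals, no filter, the filtered table, gene sums, thinning, no fold threshold, and without the shallowest libraries or J4 replicates 7 and 8. Among the calls, 306 higher and 106 lower held in both stages with DESeq2, 29 and 48 with limma-voom, 30 and 28 with all libraries and 3 and 9 with 3 groups. All 4 called Mi_23118.1, Mi_30111.1, Mi_40284.1 and Mi_44237.2. The count at an adjusted p under 0.10, 70 as reported, ran from 0 (without J3 replicate 1, 2, 5, 9 or 14, or J4_female replicate 5 or 8) to 295 (without J4_female replicate 4), and was 183 with DESeq2 size factors, 59 with library totals, 1462 without a filter, 211 after thinning, 42 without the shallowest libraries and 142 without J4 replicates 7 and 8. None of the 27 transcripts described from the pooled fit changed sign in a setting that gave it a value. They were picked by the smallest p and the settings reuse the same libraries, so this is no support. Of the 30 fits without 1 library, 17 gave a value for Mi_22144.3 and 27 for Mi_23990.1, which were not tested in the rest. No clear pairing of animals by replicate number was seen in the correlation r of their deviations from stage means. The 24 same-number pairs had r of -0.248 to 0.248 (6 over 0.1), and the 264 different-number pairs -0.388 to 0.434 (63 over 0.1). In libraries numbered 1 to 8 the replicate block gave 0 and 0 calls and 1939 transcripts at an unadjusted p under 0.05. Without the block there were 0 and 0 calls and 2658 transcripts. Depth limits low transcripts most in J4 replicate 5, with 3265447 counts.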
